A study of Homo sapiens with 36 samples.

Results

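JEKO and MINO are established human cell lines of mantle cell lymphoma, a cancer of mature B cells. The 6 libraries described here came from these lines after 24 h with DMSO, the solvent that served as the vehicle control, and were chosen by their labels: 3 MINO libraries and 3 JEKO libraries of the 36 in the series. The rest of the series holds another line, libraries of 72 h, and cells given GS716054, per the labels an inhibitor of the KDM5 histone demethylases. Both groups had been grown in RPMI-1640 medium with 20% fetal bovine serum, and no other treatment or genetic change was named. Each group is a single line, so a difference between the groups is a difference between these lines and not between types of patient. The labels call the libraries biological replicates and do not say how the cultures were separated, so p-values measure the spread between these libraries. Genes of chromosomes X and Y were left out throughout.

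Mantle cell lymphoma usually carries a translocation that brings CCND1, the gene of cyclin D1, under an immunoglobulin enhancer, and most cases express the transcription factor SOX11 and the surface protein CD5. Normal B cells pass from precursors through the mantle zone and the germinal centre to memory and plasma cells, and each stage has its own transcription factors and surface proteins. Growth and survival of the lymphoma cells are known to draw on B-cell receptor signalling, on the NF-kappaB transcription factors and on the cyclin D and CDK4 step of the cell cycle.

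The libraries held 9269078 to 12702090 reads in genes. JEKO libraries had 20965 to 21650 genes with a read and MINO libraries 18615 to 20199, and mitochondrially encoded genes took 3.26% to 4.22% of reads in JEKO and 4.94% to 6.21% in MINO. The first principal component, with 90.7% of the variance, separated the lines, and MINO replicate 2 stood apart from the other MINO libraries on the second. Values are normalised read counts (CPM, counts per 1000000 reads of the TMM-scaled library size), given in the order of replicates 1, 2 and 3. Differences are MINO minus JEKO on the log2 scale with the standard error (SE), n = 3 per line. The adjusted p is that of edgeR's quasi-likelihood test with Benjamini-Hochberg adjustment over all 14416 genes tested, and a gene was called at an adjusted p under 0.05. Of these genes 8991 (62.4%) were called, 4338 (30.1%) higher and 4653 (32.3%) lower in MINO. A stricter test against a 2-fold difference called 2627 (18.2%), 1160 (8.05%) higher and 1467 (10.2%) lower. For 67.1% of all genes tested the libraries of the lines did not overlap. The median over all genes tested was -0.03, and each list of genes below is to be read against these shares.

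Both lines carried the marks of their label. All 12 B-cell markers examined had at least 1 CPM in each line, with sums of 2228 to 2377 CPM in JEKO and 3563 to 4201 CPM in MINO. CCND1 stood at 2609, 2721 and 2621 CPM in JEKO and 2095, 1783 and 2099 CPM in MINO, a difference of -0.41 (SE 0.10, adjusted p = 0.00373), with the lines not overlapping. SOX11 was higher in MINO, at 83, 93.1 and 70.6 CPM in JEKO and 172, 158 and 176 CPM in MINO, a difference of 1.03 (SE 0.11, adjusted p = 1.52e-06). The call for CCND1 was lost when the spread was estimated over the 12 DMSO libraries of both times (adjusted p = 0.07) or over all 36 libraries (adjusted p = 0.0568). Of the 7 NK-cell markers, PRF1 alone reached 1 CPM, with means of 5.25 CPM in JEKO and 61.6 CPM in MINO. None of the 7 erythroid and megakaryocyte markers did so in either line. Among endothelial markers PECAM1 alone reached 1 CPM, with means of 20.6 CPM in JEKO and 3.16 CPM in MINO. Among epithelial markers EPCAM alone did, with means of 3.20 CPM in JEKO and 7.85 CPM in MINO. The myeloid markers summed to 0.626 to 1.01 CPM in JEKO and 1.59 to 3.16 CPM in MINO, and the stromal markers to no more than 2.17 CPM in any library.

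The lines expressed different immunoglobulin light chains. A B cell uses a kappa or a lambda light chain, joined to a heavy chain, to build its receptor. IGKC, the kappa constant gene (ENSG00000211592, chromosome 2), stood at 1924, 2026 and 2013 CPM in JEKO and 0, 0 and 0.18 CPM in MINO, with 2 reads in all MINO libraries together. The ratio of counts was 30500 (exact interval 8440 to 252000), higher in JEKO, an interval that covers counting error only. IGLC2, a lambda constant gene (ENSG00000211677, chromosome 22), stood at 61.5, 46.8 and 33.5 CPM in JEKO and 1589, 1634 and 1844 CPM in MINO, a difference of 5.16 (SE 0.19, adjusted p = 8.76e-11). Its neighbour IGLC3 had 35.9, 25.5 and 14.8 CPM in JEKO and 548, 566 and 548 CPM in MINO. The lambda constant genes are near-identical copies and reads may be split among them, so their single levels are uncertain, but each of the 2 was higher in every MINO library than in any JEKO library. IGLC7, another lambda constant gene, had reads in both lines, at 217, 189 and 170.2 CPM in JEKO and 263, 376 and 309 CPM in MINO, a difference of 0.72 (SE 0.13, adjusted p = 0.000225). Among variable genes, the following 3 were picked after their values were seen. IGKV3-20 ran from 1501 to 1524 CPM in JEKO with 1 read in MINO, while IGLV3-19 ran from 1408 to 1652 CPM in MINO with no read in JEKO, which makes it at least 18700-fold higher. The heavy-chain variable gene IGHV3-21 ran from 562 to 585 CPM in MINO with no read in JEKO.

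No difference was shown for the heavy-chain constant genes of unswitched B cells. IGHM, the gene of the mu chain, had 4962, 5022 and 5559 CPM in JEKO and 4554, 4345 and 4946 CPM in MINO, a difference of -0.17 (SE 0.11, adjusted p = 0.208), and IGHD, the delta chain, had 116, 108 and 132 CPM in JEKO and 111, 90.2 and 119 CPM in MINO, a difference of -0.15 (SE 0.11, adjusted p = 0.256). Reads over the genes of switched classes were unequal. IGHG2 was at 22, 17.7 and 14.6 CPM in JEKO and 95.7, 121 and 105 CPM in MINO and IGHG3 at 289, 248 and 197 CPM in JEKO and 629, 619 and 610.2 CPM in MINO, both called higher in MINO, whereas IGHE was at 42.8, 56.5 and 54.4 CPM in JEKO with no read in MINO, at least 527-fold lower there. IGHA1 was called higher and IGHA2 lower, with differences of 0.99 and -2.06. The call for IGHA1 was lost over the 12 DMSO libraries (adjusted p = 0.0882). The gamma and alpha genes are close copies of one another, so the split within each pair is uncertain. Of the 15 constant genes and JCHAIN tested, 9 were higher, 4 lower and 2 not called. IGLL5, a lambda-like gene beside the lambda cluster, was among the lower ones, at 27.1, 31.4 and 34.2 CPM in JEKO with no read in MINO, at least 317-fold lower.

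Genes of mature B cells were more often higher in MINO. Of 36 mature and mantle-zone genes tested, 19 (52.8%) were higher and 7 (19.4%) lower in MINO, with a median difference of 0.43. MS4A1, which encodes CD20, stood at 427, 400.0 and 445 CPM in JEKO and 1205, 900.4 and 1115 CPM in MINO, a difference of 1.34 (SE 0.12, adjusted p = 2.52e-07). CD37, a tetraspanin of mature B cells, had a difference of 1.84 (SE 0.10, adjusted p = 3.42e-09), and CD79A, one signalling chain of the receptor, of 1.52 (SE 0.12, adjusted p = 1.5e-07). The partner chain CD79B did not follow, at 503, 594 and 542 CPM in JEKO and 522, 547 and 576 CPM in MINO, a difference of 0.005 with an adjusted p of 0.967. FCER2, the CD23 gene of mantle-zone cells, was low in both lines, at 0.552, 0.235 and 0.584 CPM in JEKO and 4.74, 5.4 and 6.13 CPM in MINO, and called higher in MINO.

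Several B-lineage regulators ran the other way, while others on the mature list were higher or not called. KLF2, SPIB, IKZF3 and CIITA were called higher, at 1.52, 1.00, 0.71 and 0.46, and POU2F2 was called lower at -1.05. SPI1, ETS1 and IKZF1 were not called. These additional genes were picked after their values were seen. BACH2, a repressor that holds B cells short of the plasma cell, stood at 68.7, 90.3 and 79.2 CPM in JEKO and 36.8, 21.1 and 36.3 CPM in MINO, a difference of -1.35 (SE 0.17, adjusted p = 1.32e-05). POU2AF1, a co-activator of immunoglobulin genes, was lower at -0.88 (SE 0.089, adjusted p = 1.31e-06), and the adaptor BANK1 at -1.25 (SE 0.14, adjusted p = 2.9e-06). PAX5, which maintains B-cell identity, was slightly lower at -0.39 (SE 0.10, adjusted p = 0.00485), a call lost over the 12 DMSO libraries (adjusted p = 0.197) and over all 36 (adjusted p = 0.122). EBF1, another factor of B-cell identity, was not called at 30.8, 32.9 and 27 CPM in JEKO and 41.6, 21.5 and 35.2 CPM in MINO, and neither was BCL6, the germinal centre repressor, at 4.32, 2.27 and 2.59 CPM in JEKO and 2.43, 2.66 and 3.51 CPM in MINO. The lines overlapped for EBF1 and BCL6 and not for BACH2, POU2AF1, BANK1 and PAX5, while 67.1% of all genes tested had no overlap between the lines.

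**Figure D1:**
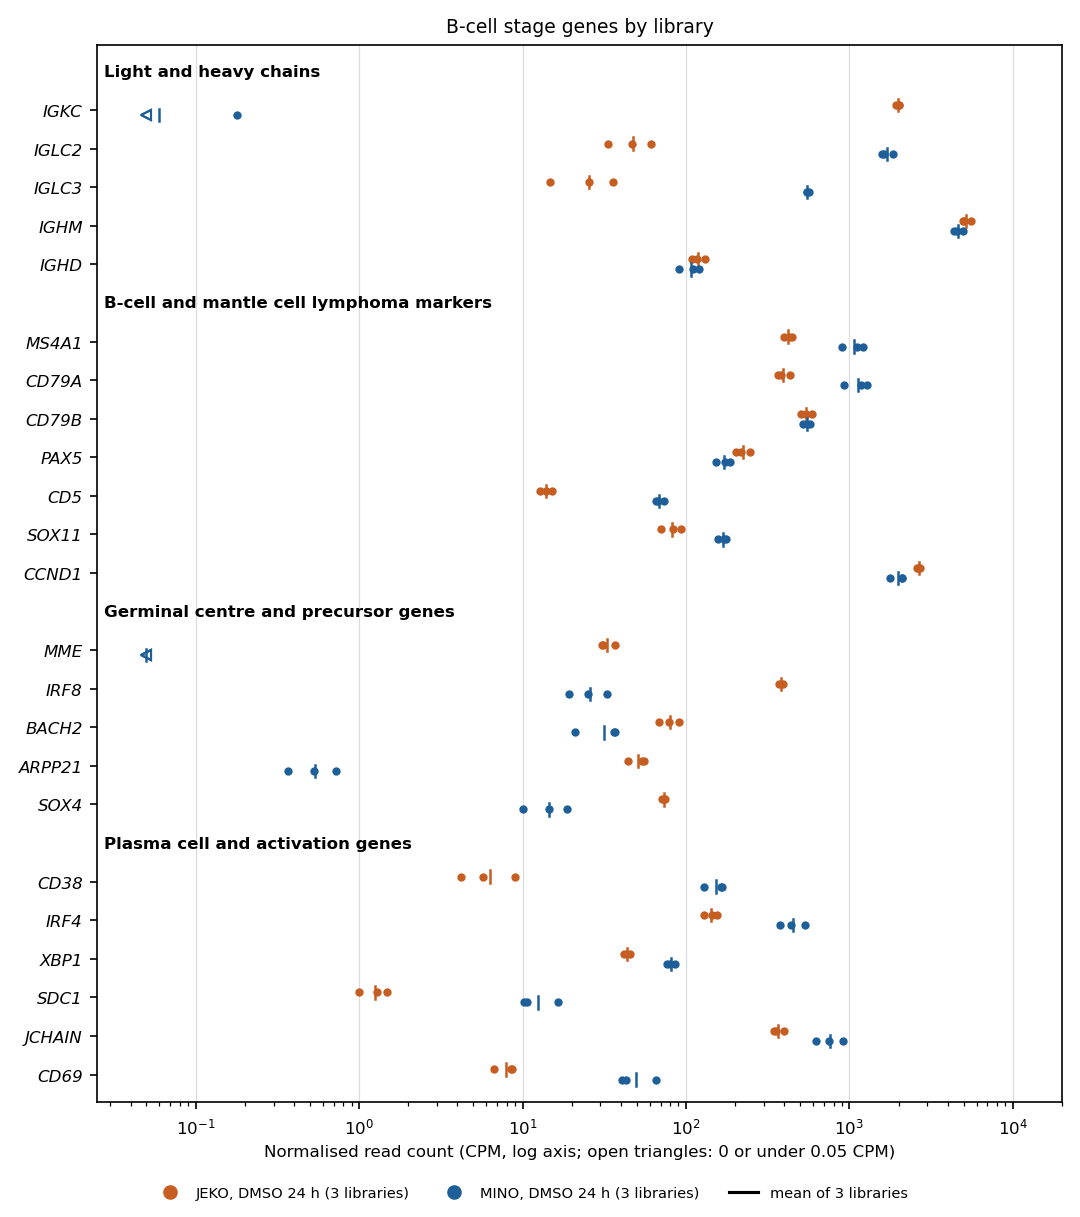
Normalised read counts (CPM, logarithmic axis) of B-cell stage genes in each of the 3 JEKO and 3 MINO libraries at 24 h, with the mean of each line as a vertical tick and values of 0 or under 0.05 CPM as open triangles. IGKC lies between 1924 and 2026 CPM in JEKO and at or under 0.18 CPM in MINO, and IGLC2 lies between 1589 and 1844 CPM in MINO and between 33.5 and 61.5 CPM in JEKO.

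Germinal centre genes were more often lower in MINO. Of 19 tested, 9 (47.4%) were lower and 4 (21.1%) higher, with a median of -0.53. IRF8, a transcription factor of germinal centre cells that was counted on the mature list, stood at 382, 390.4 and 370.2 CPM in JEKO and 25.3, 33.1 and 19.2 CPM in MINO, a difference of -3.88 (SE 0.15, adjusted p = 1.86e-10). MME, which encodes the surface enzyme CD10, had 30.9, 36.8 and 30.5 CPM in JEKO and no read in MINO, at least 336-fold lower. Each of these genes had every MINO library below every JEKO library, but the rule that names the largest differences of a list asks for this. CD38, listed with them although plasma cells carry it as well, went the other way, at 4.23, 9.0 and 5.75 CPM in JEKO and 163, 129 and 167 CPM in MINO, a difference of 4.58 (SE 0.20, adjusted p = 3.11e-10). STAP1 and MARCKSL1 were also higher, with differences of 1.98 and 1.11.

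Among 10 precursor B-cell genes tested, 3 were higher and 3 lower. ARPP21, a gene of early lymphoid cells, stood at 55.5, 53.7 and 44 CPM in JEKO and 0.365, 0.531 and 0.721 CPM in MINO, a difference of -6.50 (SE 0.22, adjusted p = 3.14e-11). SOX4, a factor of early B-cell development, stood at 73, 74.1 and 71.8 CPM in JEKO and 14.6, 10.1 and 18.7 CPM in MINO, a difference of -2.33 (SE 0.17, adjusted p = 3.74e-08). IL7R, a cytokine receptor of precursors, was at 5.24, 4.23 and 2.75 CPM in JEKO with 2 reads in MINO. All 3 of these genes had every MINO library below every JEKO library, but the rule that names the largest differences of a list asks for this. On the other side FLT3, a cytokine receptor of early progenitors picked after its values were seen, had no read in JEKO and 54 reads in MINO. LEF1, a factor of the Wnt pathway, had a difference of 0.58 (SE 0.11, adjusted p = 0.000377) and the surface protein CD24 of 0.48 (SE 0.13, adjusted p = 0.00626). The calls for LEF1 and CD24 were lost over the 12 DMSO libraries (adjusted p = 0.123 and 0.151), that for LEF1 also over all 36 (adjusted p = 0.0618).

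Plasma cell genes were mostly higher in MINO. Of 23 tested, 15 (65.2%) were higher and 5 (21.7%) lower, with a median of 0.88. IRF4, a factor that drives plasma cell differentiation, stood at 129.6, 145 and 155 CPM in JEKO and 377, 533 and 439 CPM in MINO, a difference of 1.65 (SE 0.12, adjusted p = 7.04e-08). XBP1, which expands the secretory apparatus, stood at 41.8, 45.6 and 43.9 CPM in JEKO and 79.4, 85.2 and 77 CPM in MINO, a difference of 0.88 (SE 0.093, adjusted p = 1.85e-06). SDC1, the CD138 gene of plasma cells, was low in both lines and higher in MINO, at 1.29, 1.49 and 1.0 CPM in JEKO and 10.2, 16.5 and 10.6 CPM in MINO. JCHAIN, which links secreted antibodies, was at 344, 401 and 355 CPM in JEKO and 754, 909 and 627 CPM in MINO, a difference of 1.06 (SE 0.13, adjusted p = 6.08e-06). The call for XBP1 was lost over the 12 DMSO libraries (adjusted p = 0.0749). PRDM1, the master regulator of the plasma cell, was not called, at 8.28, 6.42 and 7.76 CPM in JEKO and 5.11, 4.69 and 7.21 CPM in MINO, and some members were lower: the chaperone HSPA5 at -0.87 (SE 0.097, adjusted p = 3.13e-06) and, among the factors of transcription, ELL2 at -3.35 (SE 0.41, adjusted p = 7.47e-06).

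Of 22 memory and activation genes tested, 12 (54.5%) were higher and 4 (18.2%) lower. CD69, an early activation marker, stood at 8.46, 6.66 and 8.68 CPM in JEKO and 40.7, 65.7 and 42.7 CPM in MINO, a difference of 2.65 (SE 0.19, adjusted p = 4.71e-08). FCRL5, an inhibitory receptor of memory B cells, was higher at 2.53 (SE 0.17, adjusted p = 1.95e-08), while FCRL3 was lower at -2.06, as was FCRL2, of the mature list, at -2.16. GPR183, a receptor that guides activated B cells, stood at 76.5, 91.1 and 62 CPM in JEKO and 9.36, 4.43 and 6.94 CPM in MINO, a difference of -3.50 (SE 0.21, adjusted p = 7.1e-09). CD27, the classical memory marker, was lower at -0.87 (SE 0.11, adjusted p = 8.03e-06), although 42.5% of its exon bases are shared with exons of a gene of the other strand and the call was lost over the 12 DMSO libraries (adjusted p = 0.11) and over all 36 (adjusted p = 0.0857).

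B-cell receptor signalling passes from the kinases LYN, BLK and SYK through adaptors to calcium, RAS and NF-kappaB. Of 54 genes of this pathway tested, 33 (61.1%) were higher in MINO and 10 (18.5%) lower, with a median of 0.39. Estimated over the 12 DMSO libraries, 21 were higher. ZAP70, a SYK-related kinase best known from T cells, stood at 11.4, 12.1 and 10.6 CPM in JEKO and 92.3, 120.1 and 101 CPM in MINO, a difference of 3.20 (SE 0.12, adjusted p = 1.64e-10). LCK, a SRC-family kinase of T cells that some B-cell lymphomas express, stood at 9.93, 11.7 and 10.01 CPM in JEKO and 70.6, 87.1 and 83.2 CPM in MINO, a difference of 2.93 (SE 0.12, adjusted p = 3.1e-10). RAC2, a GTPase of the blood lineages, stood at 82.2, 78.4 and 90.3 CPM in JEKO and 826, 638 and 821 CPM in MINO, a difference of 3.19 (SE 0.12, adjusted p = 1.3e-10). For these 3 genes every MINO library lay above every JEKO library, but the rule that names the largest differences of a list asks for this. SYK itself was lower, at 526, 510.2 and 490.5 CPM in JEKO and 334, 293 and 298 CPM in MINO, a difference of -0.72 (SE 0.091, adjusted p = 1.07e-05). On the lower side RASGRP3, a RAS activator, had -3.22 (SE 0.33, adjusted p = 1.35e-06) and the inhibitory Fc receptor FCGR2B had -1.02.

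CD5, ZAP70 and LCK are shared with T cells, so markers of T cells were read beside them. CD5 stood at 12.8, 15.2 and 14 CPM in JEKO and 73.9, 65.3 and 67 CPM in MINO, a difference of 2.29 (SE 0.11, adjusted p = 1.13e-09). Of 14 T-cell markers, 4 had a mean of at least 1 CPM in JEKO and 7 in MINO, with sums of 184 to 200 CPM and 382 to 513 CPM. TRBC2 and TRAC, constant genes of the T-cell receptor, had means of 137 and 47.0 CPM in JEKO and 199.9 and 84.4 CPM in MINO, and CD7 had 4.70 and 137 CPM. The others of at least 1 CPM were CD8A, CD3E, CD28 and CD4 in MINO, with means of 4.44, 1.95, 1.10 and 1.04 CPM. In JEKO the remaining one was CD3G, with a mean of 1.13 CPM. CD3D, CD3G, CD2, CD8B, THEMIS and BCL11B had no read in any MINO library, and CD2, CD28 and THEMIS had none in JEKO.

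NF-kappaB factors are held in the cytoplasm by inhibitors and, once freed, switch on chemokines, survival genes and their own inhibitors. Of 49 pathway and target genes tested, 28 (57.1%) were higher in MINO and 8 (16.3%) lower, with a median of 0.61, and 17 were higher beyond 2-fold. To show what the promoters of genes with opposite differences hold, the 250 bases before the start of 3 members are printed 5′ to 3′ from RefSeq (GRCh38.p14), with matches to the kappaB consensus on either strand in capitals: the ligand LTB and the NF-kappaB subunit NFKB1, higher in MINO, and the caspase inhibitor BIRC3, lower in MINO.
LTB, chr6:31582426-31582675, minus strand: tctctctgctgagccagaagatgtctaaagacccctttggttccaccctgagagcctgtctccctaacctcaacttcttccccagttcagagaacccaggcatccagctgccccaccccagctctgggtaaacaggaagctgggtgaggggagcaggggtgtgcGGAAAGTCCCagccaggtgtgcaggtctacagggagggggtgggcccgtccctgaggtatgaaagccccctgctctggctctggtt
NFKB1, chr4:102501109-102501358, plus strand: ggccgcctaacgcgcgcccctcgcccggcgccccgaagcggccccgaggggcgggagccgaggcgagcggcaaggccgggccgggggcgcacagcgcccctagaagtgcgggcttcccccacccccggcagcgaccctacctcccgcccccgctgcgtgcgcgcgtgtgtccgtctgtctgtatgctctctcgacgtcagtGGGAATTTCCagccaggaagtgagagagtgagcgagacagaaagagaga
BIRC3, chr11:102317234-102317483, plus strand: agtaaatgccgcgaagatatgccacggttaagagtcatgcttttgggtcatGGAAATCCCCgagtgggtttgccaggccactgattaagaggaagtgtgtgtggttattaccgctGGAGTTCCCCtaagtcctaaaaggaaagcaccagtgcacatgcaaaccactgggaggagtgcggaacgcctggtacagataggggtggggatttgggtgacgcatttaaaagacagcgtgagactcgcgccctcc
A match stood in the 300-base window from 250 bases before to 50 after the start in 15 of the 47 list members with a promoter in the RefSeq table (31.9%), and in 1505 of all 26246 promoters (5.73%), taking 1 start per gene. Of the 12 members with a match that were tested, 6 were higher in MINO, 1 was lower and the others were not called. The list was made of known NF-kappaB targets, and a match in letters is not a bound site.

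Several ligands of that pathway were higher in MINO. CCL4, a chemokine made by activated B cells, stood at 1.1, 0.783 and 1.25 CPM in JEKO and 44.5, 83.4 and 77 CPM in MINO, a difference of 6.03 (SE 0.28, adjusted p = 6.21e-10). TNF stood at 0.368, 0.235 and 0.0834 CPM in JEKO and 14.3, 21.1 and 20.5 CPM in MINO, a difference of 6.31 (SE 0.34, adjusted p = 2.93e-09). LTB, which forms membrane lymphotoxin, stood at 1.47, 0.94 and 0.667 CPM in JEKO and 24.4, 41.2 and 24.6 CPM in MINO, a difference of 4.88 (SE 0.30, adjusted p = 8.08e-09). LTA, its soluble partner, had 2 reads in the JEKO libraries together and 7.29, 11.8 and 10.1 CPM in MINO. TNF, LTA and LTB lie next to each other on chromosome 6. For each of them every MINO library exceeded every JEKO library, but the rule that names the largest differences of a list asks for this. Not all ligands on the list went this way: IL10, an inhibitory cytokine, was called lower, with 41 reads in JEKO and 1 in MINO, TNFSF4 was called lower at -1.95, and TNFSF9 was not called, at -0.18. These 3 were picked after their values were seen.

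The subunits and regulators were divided, with NFKB1 called higher, NFKB2 lower, and REL, RELA and RELB not called, at 0.08, -0.10 and -0.21. Of the inhibitor family, NFKBIA, NFKBIB, NFKBIE and NFKBID were called higher, at 1.99, 0.55, 0.55 and 2.51. NFKBIZ and BCL3 of that family were not called. REL, RELA, RELB and the genes of the inhibitor family were picked after their values were seen. NFKB1, the p105/p50 gene of the classical pathway, stood at 77.7, 71.6 and 99.6 CPM in JEKO and 174, 187 and 206 CPM in MINO, a difference of 1.19 (SE 0.12, adjusted p = 1.27e-06). NFKB2, the p100/p52 gene of the alternative pathway, was lower, at 99.9, 80.6 and 97.3 CPM in JEKO and 54.1, 81.6 and 63.6 CPM in MINO, a difference of -0.47 (SE 0.14, adjusted p = 0.0076). The call for NFKB2 was lost over the 12 DMSO libraries (adjusted p = 0.0605) and over all 36 (adjusted p = 0.0618), and JEKO replicate 2 overlapped MINO replicate 2. TRAF3, an inhibitor of the alternative pathway, was higher at 0.64 (SE 0.098, adjusted p = 6.63e-05). BIRC3 stood at 68.4, 55.7 and 56.3 CPM in JEKO and 16.7, 25.6 and 20.6 CPM in MINO, a difference of -1.51 (SE 0.15, adjusted p = 8.18e-07), and BIRC2, beside it on chromosome 11, at -1.16 (SE 0.097, adjusted p = 1.97e-07). The median difference of the 50 protein-coding genes nearest to BIRC3 was -0.78, with 37 lower in MINO and 3 higher.

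Of 25 receptors and ligands of the TNF superfamily tested, 19 (76%) were higher and 3 (12%) lower in MINO, with a median of 1.30. Besides TNF, LTA and LTB, 7 further members were higher beyond 2-fold. The largest difference downwards was in the death receptor TNFRSF21, at 56.8, 55.1 and 63 CPM in JEKO and 7.05, 8.32 and 9.46 CPM in MINO, a difference of -2.80 (SE 0.13, adjusted p = 7.97e-10).

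Of 35 cytokine receptor and JAK-STAT genes tested, 19 (54.3%) were higher and 10 (28.6%) lower, with a median of 0.57. IL21R, the receptor of a T-cell cytokine that acts on B cells, stood at 5.7, 3.37 and 5.25 CPM in JEKO and 51.7, 75.9 and 74.6 CPM in MINO, a difference of 3.83 (SE 0.20, adjusted p = 1.6e-09). STAT5A stood at 3.04, 3.76 and 1.5 CPM in JEKO and 18.1, 21.8 and 21.7 CPM in MINO, a difference of 2.89 (SE 0.25, adjusted p = 2.98e-07). PIM1, a survival kinase induced by STAT factors and NF-kappaB, was lower, at 370.0, 312 and 326 CPM in JEKO and 52, 103 and 65.6 CPM in MINO, a difference of -2.19 (SE 0.18, adjusted p = 2.17e-07). CSF2RB, the shared beta chain of interleukin receptors, was higher at 2.31 and IL2RA, the CD25 gene, lower at -2.11.

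In the Notch pathway 12 of 25 genes tested (48%) were higher and 7 (28%) lower. NOTCH1, a receptor mutated in a part of mantle cell lymphomas, stood at 21.7, 23 and 29.1 CPM in JEKO and 82.3, 91.9 and 76.8 CPM in MINO, a difference of 1.76 (SE 0.12, adjusted p = 3.35e-08). MFNG, a glycosyltransferase that modifies Notch receptors, was higher at 2.42 (SE 0.096, adjusted p = 1.78e-10). SEMA7A, a membrane-bound semaphorin, was higher at 2.94, and so was DTX1, a Notch target picked after its values were seen, with means of 326 CPM in JEKO and 694.5 CPM in MINO and a difference of 1.09 (adjusted p = 1.74e-06). Another Notch target, NRARP, was lower, at 12.7, 18.2 and 16.6 CPM in JEKO and 5.84, 8.68 and 4.24 CPM in MINO, a difference of -1.34 (SE 0.24, adjusted p = 0.000247). HES6 was lower at -1.73 (SE 0.11, adjusted p = 1.03e-08) and HEY2 at -1.27 (SE 0.39, adjusted p = 0.0112), a call lost over the 12 DMSO libraries (adjusted p = 0.0769).

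Wnt genes were split, with 11 of 28 tested (39.3%) higher and 12 (42.9%) lower. WNT5A, a ligand of the receptor ROR1, stood at 64.2, 48.9 and 54.5 CPM in JEKO and 0, 0.443 and 0.0901 CPM in MINO, a difference of -8.08 (SE 0.32, adjusted p = 1.64e-10). WNT10A went the other way, at 4.87, 2.04 and 5.42 CPM in JEKO and 37.9, 95.2 and 44.7 CPM in MINO, a difference of 3.87 (SE 0.36, adjusted p = 5.75e-07). Among receptors FZD3 was higher and FZD7 lower, with differences of 1.43 and -2.93, and ROR1, a surface receptor of mantle cell lymphoma, was not called at 41.9, 39.5 and 38.3 CPM in JEKO and 32.1, 30.1 and 39.4 CPM in MINO.

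Homing and adhesion genes were also divided, with 16 of 35 tested (45.7%) higher, 13 (37.1%) lower and a median of -0.0025. Of the 35, 11 were higher and 10 lower beyond 2-fold. ITGB2, the beta chain of the leukocyte integrins, stood at 2.85, 2.74 and 3.84 CPM in JEKO and 179, 187 and 166 CPM in MINO, a difference of 5.81 (SE 0.14, adjusted p = 8.11e-13). Its partner ITGAL, which with ITGB2 forms LFA-1, stood at 10.8, 8.14 and 7.84 CPM in JEKO and 45.8, 61.1 and 51.3 CPM in MINO, a difference of 2.57 (SE 0.16, adjusted p = 8.73e-09). The laminin-binding integrins ITGA6 and ITGA3 were lower, at -4.96 (SE 0.35, adjusted p = 3.35e-08) and -4.60 (SE 0.35, adjusted p = 9.19e-08). Among chemokine receptors CCR7 was higher, at 62.2, 63.1 and 50.3 CPM in JEKO and 164, 180.0 and 186 CPM in MINO, a difference of 1.59 (SE 0.11, adjusted p = 1.89e-08). CXCR5 was called higher too at 1.10, but 91.1% of its exon bases overlap BCL9L on the opposite strand and the counting is not known to use strand. CXCR4 was lower, at 396, 449 and 328 CPM in JEKO and 229.7, 229 and 230.4 CPM in MINO, a difference of -0.77 (SE 0.11, adjusted p = 3.37e-05), a call lost over the 12 DMSO libraries (adjusted p = 0.137) and over all 36 (adjusted p = 0.0646).

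Interferon-stimulated genes were called in equal number on either side, 17 of 41 tested (41.5%) each. Of the 4 guanylate-binding proteins listed, GBP1 and GBP2 were tested and both were higher in MINO. GBP2 stood at 0.276, 0.392 and 0.25 CPM in JEKO and 14.9, 20.9 and 24.1 CPM in MINO, a difference of 5.97 (SE 0.31, adjusted p = 1.87e-09). OAS3, an antiviral sensor, was lower, at 9.2, 14.6 and 18.9 CPM in JEKO and 0.608, 0.266 and 0.901 CPM in MINO, a difference of -4.57 (SE 0.39, adjusted p = 2.12e-07). EPSTI1 was lower at -3.47 (SE 0.31, adjusted p = 3.6e-07), and USP18, which limits interferon signalling, had 2.21, 4.85 and 7.17 CPM in JEKO with no read in MINO, at least 49.3-fold lower. At 72 h 4 members were higher and 18 lower, with a median of -1.36, but the difference between the times called no gene.

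Antigen presentation genes were mostly higher in MINO, 21 of 28 tested (75%), with 4 lower (14.3%) and a median of 0.75. The class II genes stood out in size: HLA-DQA1 was at 0.92, 0.548 and 1.08 CPM in JEKO and 362, 376 and 399.5 CPM in MINO, a difference of 8.79 (SE 0.16, adjusted p = 1.3e-13). HLA-DQB1 was at 0.828, 0.783 and 0.584 CPM in JEKO and 440.5, 411 and 540.3 CPM in MINO and HLA-DRB1 at 20.9, 28.9 and 26.4 CPM in JEKO and 286, 265 and 339 CPM in MINO. HLA-DQA2, a close copy of HLA-DQA1, ran the other way, at 16.1, 17.5 and 21.3 CPM in JEKO and 0.73, 1.06 and 0.991 CPM in MINO. Class II genes vary in sequence between people and have near-identical copies, so the levels of single HLA genes against 1 reference genome are uncertain. The class I activator NLRC5 was lower at -0.95 (SE 0.12, adjusted p = 1.14e-05) and the proteasome subunit PSMB9 at -0.74 (SE 0.09, adjusted p = 7.28e-06).

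**Figure D2:**
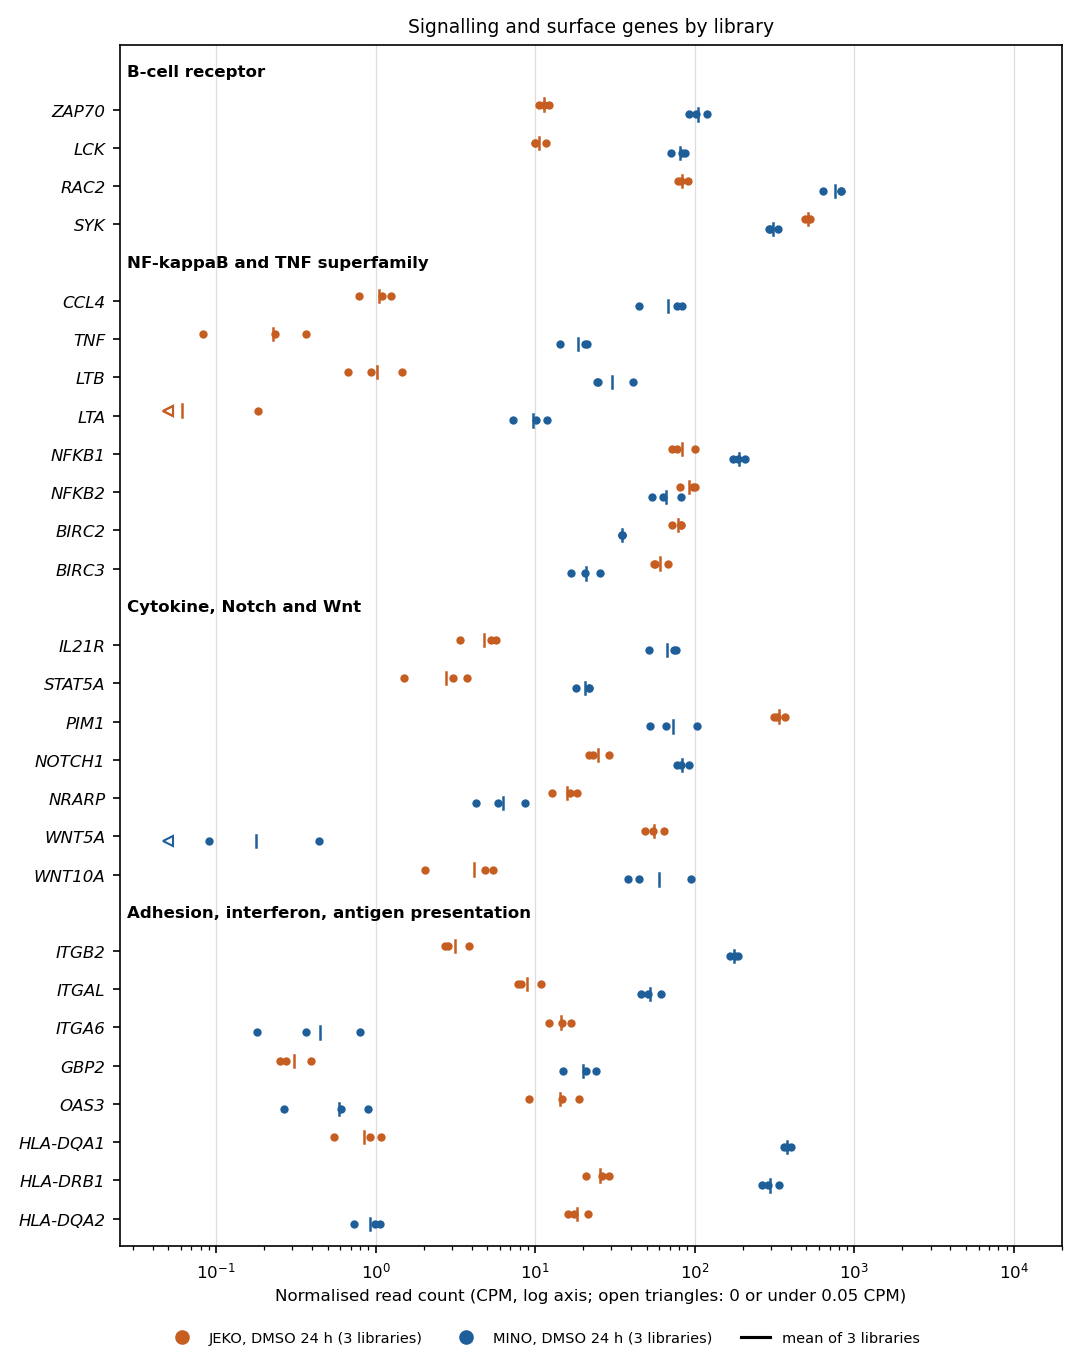
Normalised read counts (CPM, logarithmic axis) of signalling and surface genes in each of the 3 JEKO and 3 MINO libraries at 24 h, with the mean of each line as a vertical tick and values of 0 or under 0.05 CPM as open triangles. CCL4, TNF, LTB and ITGB2 lie far to the right in MINO, with ITGB2 between 166 and 187 CPM against 2.74 to 3.84 CPM in JEKO, and WNT5A and OAS3 lie far to the right in JEKO.

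**Figure D3:**
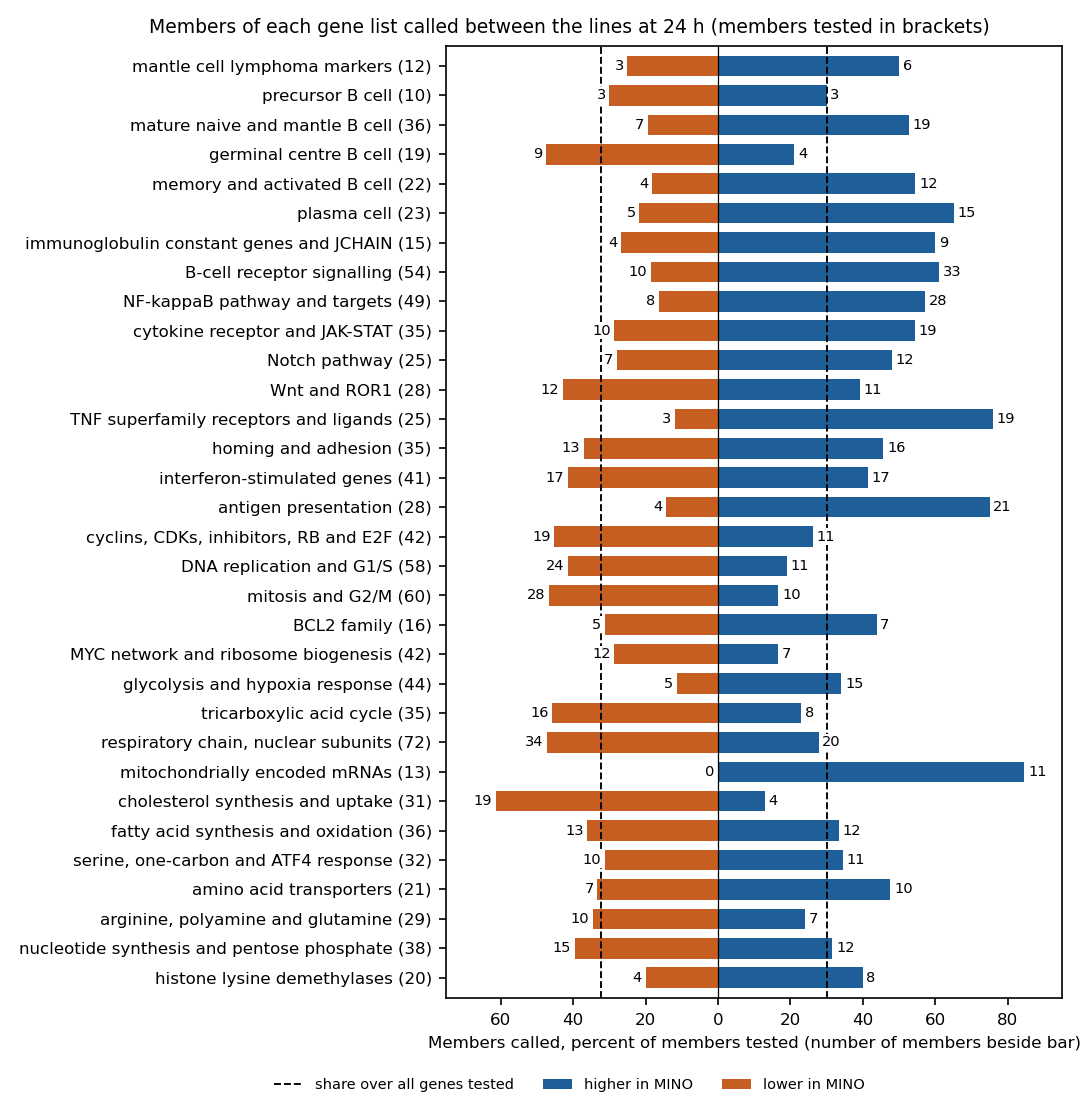
Share of the tested members of each of the 32 gene lists called higher (to the right) or lower (to the left) in MINO at 24 h, in percent, with the number of members beside each bar. Dashed lines mark the shares over all genes tested, 30.1% higher and 32.3% lower; the TNF superfamily, antigen presentation and mitochondrially encoded lists reach furthest to the right and the cholesterol list furthest to the left.

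Cell cycle lists leaned to lower values in MINO by small amounts. In bulk RNA, fewer cells in a phase and less RNA per cell cannot be told apart. Of 42 cyclins, CDKs, inhibitors and E2F genes tested, 19 (45.2%) were lower and 11 (26.2%) higher, with a median of -0.23. Estimated over the 12 DMSO libraries, 12 were lower. At 72 h 8 members were higher and 8 lower, with a median of -0.12. CDK4, the kinase that partners cyclin D, stood at 903, 1016 and 1076 CPM in JEKO and 276, 280.1 and 307 CPM in MINO, a difference of -1.79 (SE 0.10, adjusted p = 4.04e-09), although 44.2% of its exon bases overlap exons of TSPAN31 on the opposite strand. CDK6, the other cyclin D kinase, had no read in any of the 6 libraries, which allows up to 0.235 CPM in the deepest and 0.365 CPM in the shallowest library.

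The D-type cyclins were unequal in level. Per kilobase of exon, mean levels of CCND1 were 557 CPM in JEKO and 419 CPM in MINO, against 0.11 and 2.84 CPM for CCND2 and 14.0 and 7.92 CPM for CCND3. CCND2 was thus the lowest in each line, and it was higher in MINO, at 1.01, 0.861 and 0.751 CPM in JEKO and 17, 23.7 and 27.3 CPM in MINO, a difference of 4.69 (SE 0.26, adjusted p = 3.1e-09). CCND3 was lower in MINO, at -0.83 (SE 0.11, adjusted p = 2.42e-05). CCNE2, a cyclin of entry into S phase, was higher at 2.24 (SE 0.16, adjusted p = 3.6e-08), with 37.1% of its exon bases overlapped from the opposite strand.

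Of the 5 inhibitors of cyclin-dependent kinases named here, CDKN1A, CDKN1B and CDKN2A were higher in MINO, CDKN1C was lower and CDKN2C was not called. CDKN1A, the p21 gene induced by p53, stood at 33.7, 28.7 and 30.2 CPM in JEKO and 76.2, 69.3 and 76.6 CPM in MINO, a difference of 1.26 (SE 0.10, adjusted p = 1.42e-07). At 72 h its difference was -0.10 (adjusted p = 0.794). CDKN2A, the p16 and p14 gene that many mantle cell lymphomas delete, had reads in both lines, at 148, 143 and 154 CPM in JEKO and 223, 238 and 265 CPM in MINO, a difference of 0.71 (SE 0.092, adjusted p = 1.47e-05). The call for CDKN1B, at 0.44, was lost over the 12 DMSO libraries (adjusted p = 0.19) and over all 36 (adjusted p = 0.101). CDKN1C was lower, at -1.49 (SE 0.21, adjusted p = 3.5e-05), a call lost over the 12 DMSO libraries (adjusted p = 0.128) and over all 36 (adjusted p = 0.0545). RB1, the brake that cyclin D and CDK4 release, was not called, at 249.7, 224 and 242 CPM in JEKO and 271, 202 and 274 CPM in MINO.

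Of 58 replication and G1/S genes tested, 24 (41.4%) were lower and 11 (19%) higher, with a median of -0.17, and of 60 mitosis genes 28 (46.7%) were lower and 10 (16.7%) higher, with a median of -0.25. Beyond 2-fold only 3 and 1 of them were called. MCM5, a subunit of the replicative helicase, was higher, at 296, 340.4 and 378 CPM in JEKO and 880.5, 726 and 1060 CPM in MINO, a difference of 1.39 (SE 0.14, adjusted p = 8.25e-07). GINS2, another helicase component, was lower at -1.30 (SE 0.092, adjusted p = 3.51e-08), PRIM1, the primase, at -1.36 (SE 0.098, adjusted p = 4.47e-08), and the spindle checkpoint gene MAD2L1 at -1.05 (SE 0.099, adjusted p = 6.18e-07). CENPM, a centromere protein, was lower at -1.72 (SE 0.11, adjusted p = 1.31e-08). MKI67, the usual marker of proliferation, was not called, at 309, 289.5 and 251 CPM in JEKO and 303, 266 and 252 CPM in MINO. The number of replication genes higher was 7, 6 and 7 without JEKO replicate 1, JEKO replicate 2 and MINO replicate 1, and over the 12 DMSO libraries 18 mitosis genes were lower. At 72 h 5 replication genes were lower and 7 higher, and 5 mitosis genes were lower and 9 higher.

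MYC, a driver of growth and ribosome production, stood at 494, 545 and 502 CPM in JEKO and 526, 564 and 479 CPM in MINO, and the lines overlapped. Its difference was 0.027 (SE 0.096, adjusted p = 0.816). Of 42 genes of the MYC network and ribosome biogenesis tested, 7 were higher and 12 lower (45.2% called), none of them beyond 2-fold. Over the 12 DMSO libraries 6 were lower. FBL, which methylates ribosomal RNA, was higher at 0.72 (SE 0.093, adjusted p = 1.26e-05) and BYSL, a factor of the small subunit, lower at -1.07 (SE 0.11, adjusted p = 1.71e-06).

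In the BCL2 family 7 of 16 genes tested (43.8%) were higher and 5 (31.2%) lower, and over the 12 DMSO libraries 3 were lower. Among guardians of survival, BCL2 was not called, at 118, 114 and 103 CPM in JEKO and 97.4, 108 and 93.6 CPM in MINO, and MCL1 was lower, at 372, 329.6 and 350.4 CPM in JEKO and 255, 256 and 268 CPM in MINO, a difference of -0.43 (SE 0.088, adjusted p = 0.000676). BCL2L1, the BCL-xL gene, was higher at 0.74 (SE 0.12, adjusted p = 0.000119), with 41.3% of its exon bases overlapped from the opposite strand. Among the genes that promote cell death, BAX was higher at 0.96 (SE 0.12, adjusted p = 6.38e-06), BBC3, the PUMA gene, at 0.98 (SE 0.19, adjusted p = 0.000508), and HRK lower, at 10.5, 12.6 and 7.09 CPM in JEKO and 0.73, 0.797 and 0.631 CPM in MINO, a difference of -3.79 (SE 0.32, adjusted p = 2.52e-07). BCL2L11, the BIM gene, had 5 reads in the JEKO libraries together and none in MINO.

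Of 44 glycolysis and hypoxia genes tested, 15 (34.1%) were higher in MINO and 5 (11.4%) lower, against 62.4% called over all genes. Without MINO replicate 2 the number lower was 16, without MINO replicate 1 or 3 it was 3, and over the 12 DMSO libraries 8 were higher and 2 lower. HIF1A, the hypoxia-inducible transcription factor, was higher, at 44.9, 43 and 33.3 CPM in JEKO and 127, 107 and 129 CPM in MINO, a difference of 1.58 (SE 0.12, adjusted p = 8e-08). PGM1, which feeds glycogen sugar into glycolysis, was higher at 1.52 (SE 0.11, adjusted p = 4.22e-08), and SLC16A7, a monocarboxylate transporter, had 11.1, 12.3 and 13 CPM in MINO with no read in JEKO, at least 145-fold higher. The enzymes HK2 and LDHA, at the first and the last step from glucose to lactate, were not called, and HK2 stood at 144, 203 and 189.8 CPM in JEKO and 144, 244 and 129 CPM in MINO. MINO replicate 2 was the highest MINO library for both.

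Nuclear genes of mitochondrial metabolism were more often lower in MINO. Of 35 genes of the tricarboxylic acid cycle tested, 16 (45.7%) were lower and 8 (22.9%) higher, and of 72 nuclear subunits of the respiratory chain 34 (47.2%) were lower and 20 (27.8%) higher. ACO1, the cytosolic aconitase and iron sensor, stood at 81.1, 72.4 and 76.5 CPM in JEKO and 11.3, 10.8 and 10.1 CPM in MINO, a difference of -2.84 (SE 0.11, adjusted p = 1.78e-10). DLAT, a core subunit of pyruvate dehydrogenase, was lower at -1.40 (SE 0.10, adjusted p = 4.77e-08), SDHD of complex II at -1.31 (SE 0.09, adjusted p = 2.75e-08) and NDUFC1 of complex I at -2.13 (SE 0.11, adjusted p = 1.26e-09). This lean was not seen at 72 h for the respiratory chain, where 14 genes were higher and 13 lower, with a median of 0.0475. Of the cycle genes 5 were higher and 10 lower at 72 h, with a median of 0.0258. Over all 36 libraries 21 respiratory chain genes were lower at 24 h.

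The mitochondrially encoded mRNAs went the other way, with 11 of 13 higher in MINO and none lower, a median of 0.66. MT-CO3, a subunit of complex IV, was at 3482, 3847 and 3376 CPM in JEKO and 9806, 7332 and 8248 CPM in MINO, a difference of 1.25 (SE 0.13, adjusted p = 1.73e-06). MT-ND1 was not called, at 2081, 1863 and 1619 CPM in JEKO and 2399, 1761 and 1744 CPM in MINO, and neither was MT-ND2. Mitochondrially encoded genes took 4.94% to 6.21% of reads in MINO and 3.26% to 4.22% in JEKO, and the part of that share in the result was not tested. The count fell to 4 over the 12 DMSO libraries and 6 over all 36, and at 72 h 1 member was called.

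Cholesterol genes had the largest share of lower members among the 32 lists: 19 of 31 tested (61.3%) were lower and 4 (12.9%) higher, with a median of -0.32. HMGCS1, which starts the pathway, stood at 179.5, 119 and 148 CPM in JEKO and 54.8, 54.2 and 49.3 CPM in MINO, a difference of -1.5 (SE 0.13, adjusted p = 3.26e-07), with 37.7% of its exon bases overlapped from the opposite strand. SQLE, squalene epoxidase, stood at 167, 126 and 154 CPM in JEKO and 42.2, 44.9 and 39 CPM in MINO, a difference of -1.82 (SE 0.12, adjusted p = 1.16e-08). For both enzymes every MINO library lay below every JEKO library, while 67.1% of all genes tested had no overlap between the lines. ABCA1, which exports cholesterol, stood at 30.9, 39.1 and 22.9 CPM in JEKO and 2.07, 3.01 and 2.34 CPM in MINO, a difference of -3.63 (SE 0.23, adjusted p = 1.41e-08). The 4 cholesterol genes called higher became 2 without JEKO replicate 2 or without MINO replicate 1, and 1 over the 12 DMSO libraries.

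Fatty acid genes were split, with 12 of 36 tested (33.3%) higher and 13 (36.1%) lower, and 6 higher without JEKO replicate 1. SCD5, a stearoyl-CoA desaturase, had 34.4, 31.2 and 35.4 CPM in JEKO and no read in MINO, at least 343-fold lower. FADS1, a desaturase of polyunsaturated fatty acids, was lower at -2.05 (SE 0.14, adjusted p = 2.3e-08), and CPT2, which brings fatty acids to oxidation in the mitochondrion, higher at 1.5 (SE 0.15, adjusted p = 1.18e-06). FASN, which builds palmitate, was not called, at 402, 407 and 519.6 CPM in JEKO and 526, 486 and 497 CPM in MINO, and neither was CPT1A.

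Serine is made from a glycolytic intermediate by PHGDH, PSAT1 and PSPH in that order, and the lines differed most at the middle step. PSAT1 (ENSG00000135069, chromosome 9) stood at 68.2, 65.7 and 72.7 CPM in JEKO and 0, 0.0885 and 0.0901 CPM in MINO, with 2 reads in the MINO libraries together. The ratio of counts was 1050 (exact interval 291 to 8700), lower in MINO. PHGDH was higher in MINO, at 116, 128 and 110.1 CPM in JEKO and 196, 185 and 212 CPM in MINO, a difference of 0.74 (SE 0.094, adjusted p = 1.05e-05), and PSPH was higher too, at 29.6, 29.3 and 30.5 CPM in JEKO and 71, 71.2 and 65.7 CPM in MINO, a difference of 1.22 (SE 0.096, adjusted p = 1.13e-07). The call for PHGDH was lost over all 36 libraries (adjusted p = 0.0503), and at 72 h its difference was -0.29 (adjusted p = 0.523). GLDC, which breaks down glycine, had 10.5, 4.51 and 6.85 CPM in MINO and no read in JEKO, at least 82.6-fold higher. Of 32 genes of serine, one-carbon and ATF4 metabolism tested, 11 were higher and 10 lower (65.6% called). ASNS, the asparagine synthetase, was near the floor in both lines, at 1.29, 0.705 and 0.334 CPM in JEKO and 1.22, 3.01 and 0.27 CPM in MINO.

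Among genes of arginine, polyamine and glutamine metabolism, GLUL, the glutamine synthetase, was lower, at 183, 183 and 188 CPM in JEKO and 65.9, 66.7 and 59.2 CPM in MINO, a difference of -1.53 (SE 0.089, adjusted p = 5.41e-09). NOS3, a nitric oxide synthase, was lower at -2.15 (SE 0.13, adjusted p = 9.04e-09). Of 29 tested, 7 were higher and 10 lower, with 4 higher without JEKO replicate 2. Amino acid transporters numbered 10 higher and 7 lower of 21, with 6 higher without JEKO replicate 2, and SLC7A7 had a difference of 1.42 (SE 0.15, adjusted p = 2.22e-06). Of 38 nucleotide and pentose phosphate genes, 12 were higher and 15 lower. IMPDH1, which commits to guanine nucleotides, was higher at 1.71 (SE 0.10, adjusted p = 8.27e-09), and APRT, which salvages adenine, lower at -1.51 (SE 0.097, adjusted p = 1.36e-08).

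**Figure D4:**
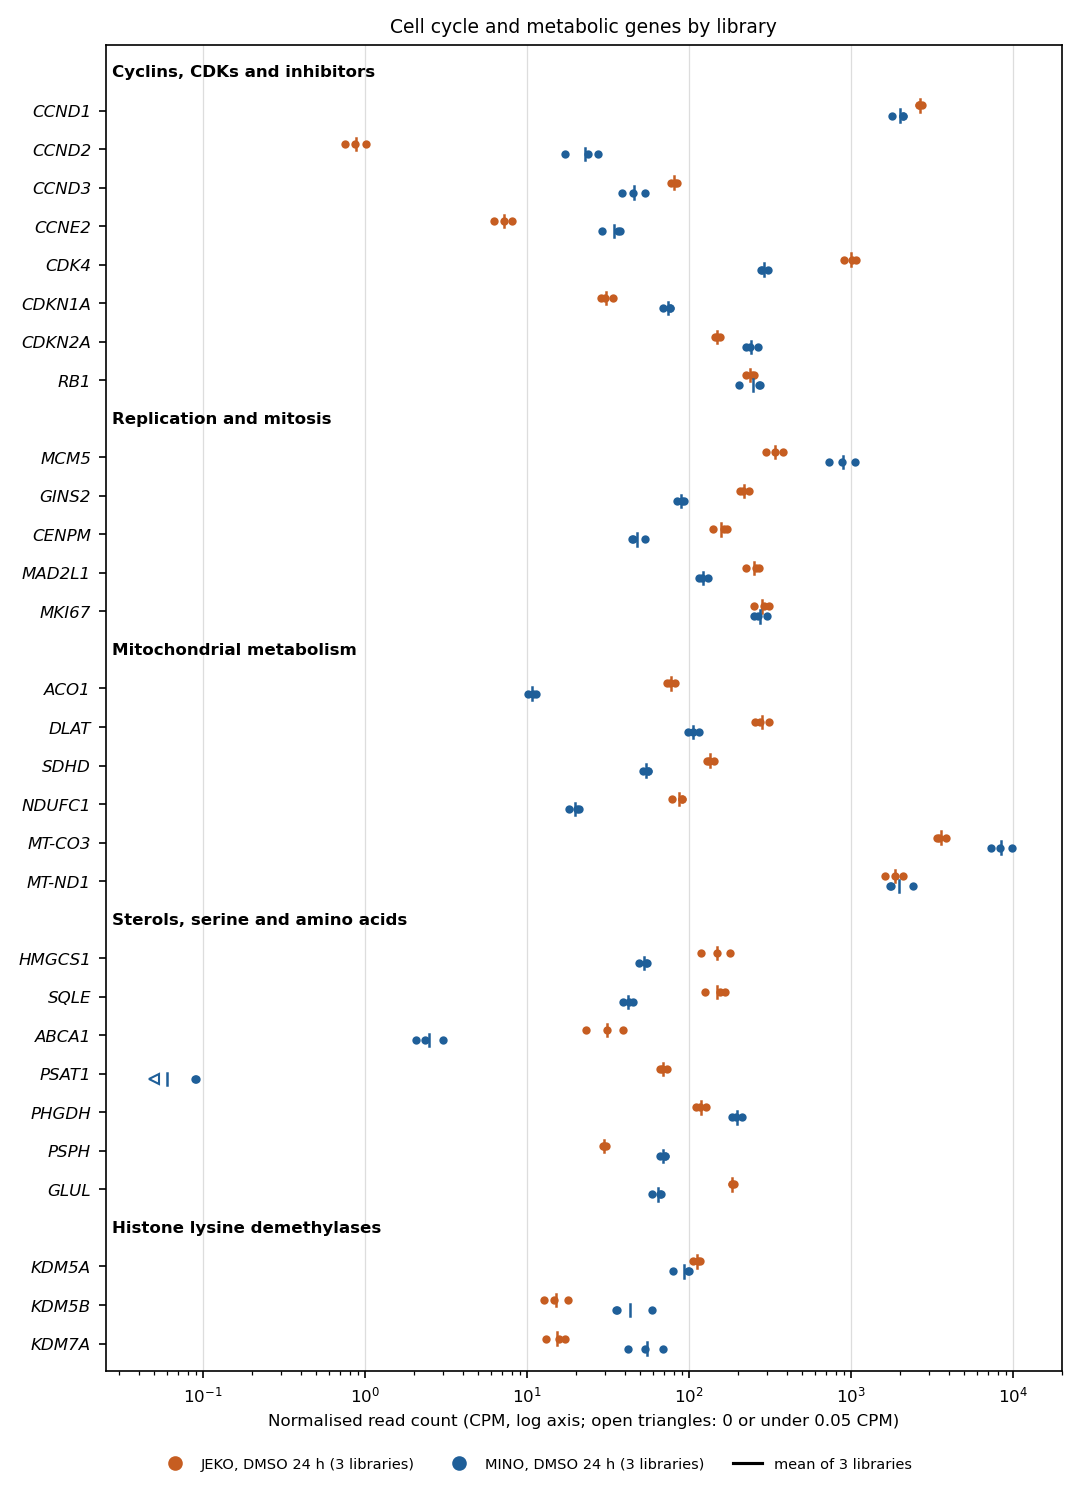
Normalised read counts (CPM, logarithmic axis) of cell cycle and metabolic genes in each of the 3 JEKO and 3 MINO libraries at 24 h, with the mean of each line as a vertical tick and values of 0 or under 0.05 CPM as open triangles. PSAT1 has 65.7 to 72.7 CPM in JEKO and at most 0.0901 CPM in MINO, and the points of MKI67 and RB1 overlap between the lines.

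Because the series tests an inhibitor of KDM5 enzymes, the untreated levels of the demethylases were also examined. Of 20 autosomal histone lysine demethylases tested, 8 were higher and 4 lower (60% called). KDM5B, which removes methyl groups from lysine 4 of histone H3, stood at 14.5, 17.8 and 12.7 CPM in JEKO and 35.1, 58.5 and 36 CPM in MINO, a difference of 1.53 (SE 0.20, adjusted p = 1.14e-05). KDM5A, its paralogue, stood at 117, 105 and 112 CPM in JEKO and 98.8, 79.8 and 100.2 CPM in MINO, a difference of -0.27 (SE 0.10, adjusted p = 0.0367), a call lost without JEKO replicate 1 (adjusted p = 0.0792), JEKO replicate 3 (adjusted p = 0.0502) or MINO replicate 2 (adjusted p = 0.146), over the 12 DMSO libraries (adjusted p = 0.197) and over all 36 (adjusted p = 0.186). Per kilobase of exon the mean level of KDM5A was 9.28 CPM in JEKO and 7.73 CPM in MINO, above that of KDM5B, 0.602 and 1.74 CPM. KDM7A and KDM6B were higher, at 1.83 (SE 0.17, adjusted p = 6.32e-07) and 1.35 (SE 0.16, adjusted p = 4.9e-06), and PHF2 lower at -1.20 (SE 0.11, adjusted p = 5.33e-07). The counts were 5 higher without JEKO replicate 2 and 2 lower without JEKO replicate 3.

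Some genes were read in one line and nearly silent in the other. With at most 3 reads in every library of one line and at least 5 CPM in every library of the other, 196 genes were near zero in MINO, 165 of them protein-coding, and 35 were near zero in JEKO, 25 of them protein-coding. CTCFL, a germline paralogue of the chromatin factor CTCF, stood highest among the protein-coding genes near zero in MINO, with 404, 416 and 442 CPM in JEKO and no read in MINO, at least 4300-fold lower. PRAME, a testis and tumour antigen, had 299, 247 and 218 CPM in JEKO and 1 read in MINO. BMP7, a secreted growth factor, had 175, 187 and 180.5 CPM in JEKO and no read in MINO, and the neuronal deubiquitinase UCHL1 had 47.4, 42.7 and 51.5 CPM and no read. In the other direction MTX3, of the mitochondrial outer membrane, had 21, 20.8 and 17.3 CPM in MINO and no read in JEKO, and DEPDC1, a gene of dividing cells, 34.6, 27.6 and 25.1 CPM with 2 reads in JEKO. CERS6, a ceramide synthase, had 25.3, 21 and 20.4 CPM in MINO and no read in JEKO, with 43.8% of its exon bases overlapped from the opposite strand. In the RefSeq promoter table, 134 of the 165 protein-coding genes near zero in MINO had an entry, with a median of 24.5 CpG sites in 300 bases, against 27 in the 9250 protein-coding genes tested that had one.

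Differences were not spread evenly over the genome. By autosome, the median difference of protein-coding genes ranged from -0.74 on chromosome 9, where 322 of 471 genes tested (68.4%) were lower in MINO, to 0.63 on chromosome 8, where 235 of 381 (61.7%) were higher. In windows of 51 consecutive protein-coding genes tested, the median over 10219 windows was -0.055, and 5% of windows lay below -0.76 and 5% above 0.76. The lowest was at chr9:93096217-105439171 (GRCh38), with a median of -1.30 and 47 of 51 genes lower, and it holds ABCA1, PHF2 and SMC2. The next was at chr12:56712305-65491430, with a median of -1.20 and 46 genes lower, and holds CDK4, PRIM1 and DDIT3. SLC16A7 lies in the same window and was higher in MINO.

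Chromosome 22 held neighbouring windows of opposite sign. At chr22:30576625-37679802 the median was 1.28, with 45 of 51 genes higher, RAC2, MFNG, CSF2RB and MCM5 among them. At chr22:38982347-42614962 the median was -1.10, with 39 genes lower, CENPM and ADSL among them. The highest window was at chr17:16217191-27649560, with a median of 1.29 and 48 genes higher. At 72 h, in other libraries, the medians of these 5 windows were -1.12, -1.23, 1.43, -1.07 and 1.18. The 50 protein-coding genes nearest to PSAT1 had a median of -0.71 and those nearest to ACO1, also on chromosome 9, -0.85. Copy number was not measured in these libraries.

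**Figure D5:**
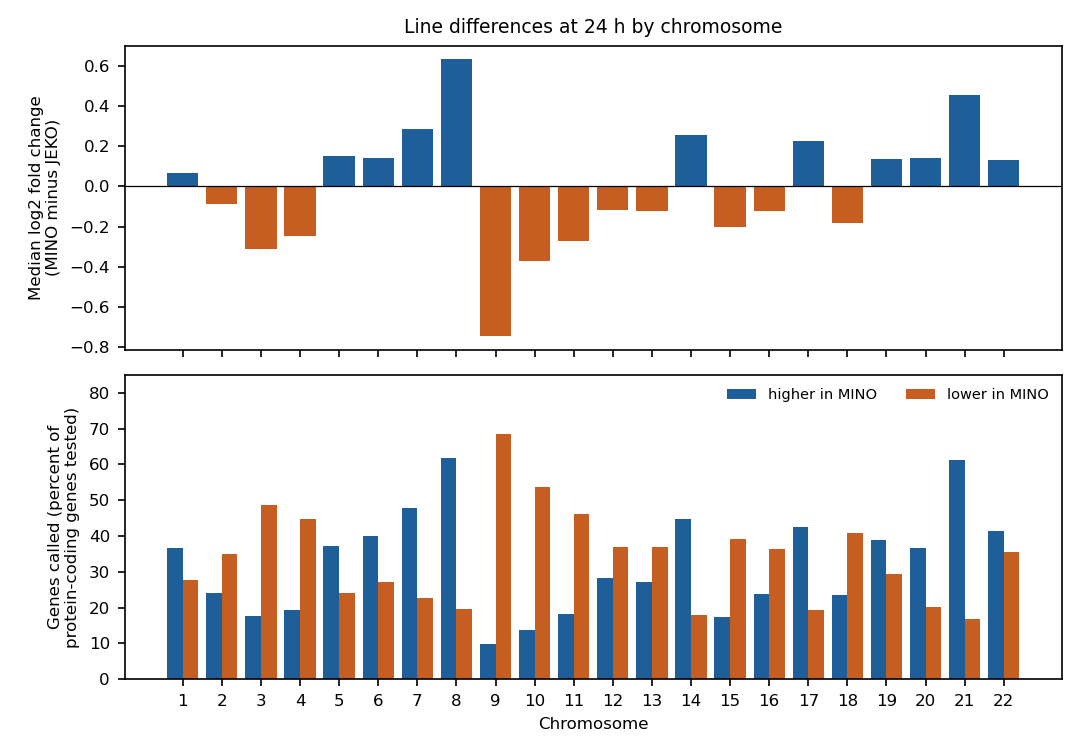
Median log2 difference (MINO minus JEKO, upper panel) and the percent of protein-coding genes tested that were called higher or lower in MINO (lower panel) on each autosome at 24 h. Chromosome 9 has the lowest median, -0.74 with 68.4% of genes lower, and chromosome 8 the highest, 0.63 with 61.7% higher.

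The same lines were compared again in the DMSO libraries of 72 h, none of which enter the comparison at 24 h. There 6490 of 15311 genes tested (42.4%) were called. Replicates mostly differed more at 72 h. The chi-square per gene between pairs of replicates was 22.3 to 49.4 in JEKO and 13.6 to 86 in MINO. At 24 h it was 4.21 to 9.8 and 5.61 to 15. The part of this spread in the lower counts at 72 h and over the 12 DMSO libraries was not tested. A gene not called is not shown to be equal between lines or times. Of 14210 genes tested at both times, 8864 were called at 24 h and 5947 at 72 h, 5260 of them in the same direction at both and 14 in opposite directions. Of 2527 genes beyond 2-fold at 24 h, 2356 (93.2%) were called in the same direction at 72 h. At 72 h 23 B-cell receptor genes were higher and 6 lower, 23 NF-kappaB genes were higher and 11 lower, and 2 cholesterol genes were higher and 12 lower. A direct test of the change from 24 h to 72 h with edgeR called 0 of 15837 genes, with 1816 at an unadjusted p under 0.05, and DESeq2 called 121. Among single genes, PRDM1 had a difference of 1.75 at 72 h (adjusted p = 0.00546), and IGHM of 0.55 (adjusted p = 0.341).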

How the data were processed

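RNA of established cell lines was sequenced, and each library has 1 file of whole-number read counts for 58302 Ensembl gene IDs, as deposited by the authors. HISAT2 2.2.1, HTSeq 0.13.5 and the build GRCh38 are named in the submitters' processing notes; strandedness, annotation release and counting options are not given in the sources used here. Names and positions of genes came from GENCODE release 44 (57532 IDs matched). The summary lines of reads in no gene, 43.4% to 44.5% of reads for those in no feature, stayed out of all tests. Genes of X and Y (2848) and the 770 IDs with no match were removed before filtering.

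Counts were tested in R 4.3.3 with edgeR 4.0.16 (TMM, filterByExpr at its settings of 10 for the minimum count and 15 for the total, quasi-likelihood, 4 residual degrees of freedom; glmTreat against a log2 difference of 1 for the stricter call), and DESeq2 1.42.0 was an alternative. The method was tested on simulated counts. The 32 lists (1094 genes; counts cover members that passed the filter) and the named genes were chosen with earlier results of these data known. Named were 54 fixed genes, the B-cell markers, all members of lists of up to 16 genes, up to 3 genes per direction and list with the largest difference among called genes without overlap whose mean log2 CPM was 1 or more, and the 8 per direction over all protein-coding genes at a mean log2 CPM of 3 or more. A count of 0 allows up to 3 counts, summed over a line for folds given as at least, and exact 95% intervals of count ratios cover counting error only. Without known strandedness, reads of a gene and its antisense partner cannot be told apart; 12.1% of named genes have at least 10% of exon bases overlapped so. Some genes that this rule names are not reported here. Alternatives were DESeq2 size factors, no filter, a minimum count of 50, a replicate block, X and Y kept, the DESeq2 test, fits of 12 DMSO or all 36 libraries, and leaving out each library.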

Additional observations from a re-analysis of the deposited data

How the results depend on the processing

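The count of genes called at 24 h, 8991, ranged from 7545 (minimum count of 50) to 10067 (no low-count filter), from 8204 to 9255 when each library was left out, and was 8561 with DESeq2, 7654 over the 12 DMSO libraries and 8213 over all 36. The count beyond 2-fold ranged from 1757 to 3168 and the count at 72 h from 5103 to 9293, each within 1.5 times its main value. The change of the difference from 24 h to 72 h called no gene in the main analysis, 121 with DESeq2, 459 with no low-count filter and 0 to 68 when each library was left out: 68 without JEKO replicate 2 of 72 h, 8 without MINO replicate 2 of 72 h and 1 without JEKO replicate 1 of 72 h. The cause was not tested.

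Replicates of the lines share only a number: deviations of same-numbered libraries had correlations of -0.0545, 0.0756 and 0.237, and only number 3 was the best match in both lines. With the replicate number as a block, 9314 genes were called at 24 h, 2652 beyond 2-fold, 7085 at 72 h and 0 for the change between times, and the glycolysis genes lower in MINO numbered 9 instead of 5.

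Of the values of named genes under the alternatives, 3394 kept direction and side of the threshold, 82 lost the call, 15 gained one and 38, of 12 genes not called in the main analysis, changed sign. CD79B was at -0.0209, -0.0065, -0.00403, -0.0226 and -0.00536 over 12 DMSO libraries, over 36, with a minimum count of 50, with no filter and with X and Y kept. CPT1A was at -0.0177, -0.00139, -0.00217, -0.0198 and -0.00226 in the same order, and CD72 at -0.000963 over 12 DMSO libraries and -0.00176 with no filter. Leaving out each library gave ranges of -0.131 to 1.5 for ASNS, -0.0343 to 0.339 for ASS1, -0.276 to 0.225 for BCL6, -0.0512 to 0.0729 for CD72, -0.0738 to 0.0489 for CD79B, -0.048 to 0.131 for CPT1A, -0.088 to 0.347 for EBF1, -0.389 to 0.123 for HK2, -0.147 to 0.014 for MKI67, -0.0767 to 0.172 for MT-ND1, -0.024 to 0.0931 for MYC and -0.00678 to 0.199 for RB1. Depth limits genes near 0.235 to 0.365 CPM, the level of 3 counts.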
